A study of Mus musculus with 6 samples.

Results

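Motile cilia genes encode the transcription factor, the dynein motors and the structural proteins of beating cilia. They were taken as the genes of a fixed list of 20 symbols together with all dynein heavy and intermediate chain, dynein assembly factor, tektin, radial spoke and cilia and flagella associated protein genes named Dnah, Dnaic, Dnali, Dnaaf, Tekt, Rsph or Cfap with a number. A probe set had to name that gene alone, and each gene was read from its brightest probe set. This gave 74 genes, of 18193 genes with such a probe set, and 65 of the 74 passed a filter on dim signals that 12952 genes passed.

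RNA came from alveolar type II cells isolated from lungs of mice aged 2 months, and each of 6 arrays held 1 pool of RNA. The 3 Insig1-deleted pools (Insig1 ∆/∆ /Insig2 -/-) came from mice carrying the SpC-rtTA and Otet-CRE transgenes on an Insig1 flox/flox, Insig2 -/- background. The 3 control pools (Insig1 flox/flox /Insig2 -/-) came from mice that lacked SpC-rtTA or Otet-CRE, and the sources used here do not say which of them each pool lacked, or how many mice a pool held. Doxycycline treatment in utero (E6.5 to E12.5) is stated in the labels of all 6 samples, and all samples carry the label Insig2 -/-. The Cre was driven through the promoter of Sftpc, a surfactant gene of type II cells that is also active in embryonic lung epithelium. Since no group carried the whole Cre system with Insig1 intact, an effect of that system and the loss of Insig1 cannot be told apart. Arrays correlated at 0.924 to 0.940 on the log2 scale, and 81 genes were higher and 3 lower in deleted pools at an adjusted p under 0.05. The Insig1 probe set averaged -0.95 ± 0.18 (log2, SE, adjusted p = 0.068), with no overlap between the groups. The Insig2 probe set had 2107, 1904 and 1930 in deleted pools and 2626, 2277 and 1844 in control pools, above the filter in all 6. Whether it lies outside the deleted part of Insig2 was not tested, so it does not check that label. Among type II cell markers, 11 of 11 measured genes passed the filter and 0 were called at an unadjusted p under 0.05 (limma). With 3 pools a group this does not show equal levels. Of 12 macrophage markers, 7 were higher in deleted pools at an adjusted p under 0.05.

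Motile cilia are hair-like cell extensions whose beating moves mucus along the airways. Each has an axoneme, a ring of microtubule doublets around a central pair. Dynein arms on the doublets slide neighbouring doublets past each other, radial spokes and the central pair steer the arms, and links between doublets turn sliding into bending. In the lung most of these genes are known from multiciliated cells of the conducting airways, where Foxj1 and RFX factors switch them on, while a few, such as Tubb4b, are used by many cell types. In RNA from a whole isolate, fewer ciliated cells and less ciliary RNA per cell cannot be told apart.

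Promoters are shown for the gene that passed the test and for the 3 members with the next smallest p, because the genes varied together across pools and RFX factors act on ciliary promoters. The set of RefSeq promoters available here covered 62 of the 74 genes (build GRCm38.p6, 250 bases before to 50 after the gene start), and Foxj1 was not among them. The search used the letters GTTGCC of the RFX motif, TGTTTAC of the forkhead motif bound by FOXJ1-type factors, and CCAAT, each on both strands. None of these words lies within another, but GTTGCC and CCAAT can share letters at their ends. Capitals mark GTTGCC or its complement GGCAAC.
Ccdc153, chr9:44240427-44240726, + strand: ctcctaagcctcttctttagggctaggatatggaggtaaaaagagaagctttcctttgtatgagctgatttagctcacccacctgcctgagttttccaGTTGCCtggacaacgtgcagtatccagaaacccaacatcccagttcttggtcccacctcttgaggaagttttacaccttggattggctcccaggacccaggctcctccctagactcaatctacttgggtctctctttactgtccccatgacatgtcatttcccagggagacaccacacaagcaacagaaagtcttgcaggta
Fam183b, chr11:58801911-58802210, - strand: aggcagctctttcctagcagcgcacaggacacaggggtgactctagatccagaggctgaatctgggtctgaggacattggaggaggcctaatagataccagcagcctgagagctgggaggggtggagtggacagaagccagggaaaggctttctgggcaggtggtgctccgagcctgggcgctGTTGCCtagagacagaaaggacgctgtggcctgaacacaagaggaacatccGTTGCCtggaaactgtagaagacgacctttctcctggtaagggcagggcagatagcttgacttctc
Calml4, chr9:62857854-62858153, + strand: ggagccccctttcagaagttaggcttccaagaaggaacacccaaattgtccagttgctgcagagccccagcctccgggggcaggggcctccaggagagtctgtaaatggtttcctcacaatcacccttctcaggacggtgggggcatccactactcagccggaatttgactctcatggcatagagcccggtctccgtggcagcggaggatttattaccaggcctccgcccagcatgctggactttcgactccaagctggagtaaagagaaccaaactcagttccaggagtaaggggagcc
Dnah2, chr11:69549059-69549358, - strand: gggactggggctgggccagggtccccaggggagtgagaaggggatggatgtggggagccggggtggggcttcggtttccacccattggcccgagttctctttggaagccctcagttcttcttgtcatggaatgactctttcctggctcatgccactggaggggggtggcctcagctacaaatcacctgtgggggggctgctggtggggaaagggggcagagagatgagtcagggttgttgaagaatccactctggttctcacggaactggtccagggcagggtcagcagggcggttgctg
The Ccdc153 window held the RFX letters once, starting at -152 from the gene start, and the Fam183b window held them at -67 and -16. The Calml4 and Dnah2 windows held none, which says only that these letters are not in those windows. Of the 69 promoters of the members, 25 (36.2%) held the RFX letters, against 4111 of all 32851 promoters in the table. The forkhead letters stood in 4 of the 69 (5.80%), against 3.65% of all promoters, and CCAAT in 26 (37.7%), against 37.4%. A match of letters is a description and not evidence of binding.

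Motile cilia genes lay lower in Insig1-deleted isolates almost throughout, with a median of 68.6% of the control level, but pool-to-pool spread was wide and a single gene passed the test. Of the 65 members past the filter, 64 had a log2 fold change below 0, where 50.9% of all genes did. Their median was -0.54, with quartiles of -0.70 and -0.42, beside a median of -0.0049 over all genes tested. Ccdc153 alone fell at an adjusted p under 0.05, which is 1.54% of the members against 0.0232% of all genes, and 0 rose, against 0.625% of all genes. At an unadjusted p under 0.05, 33 members (50.8%) were lower and 0 higher, where 6.02% of all genes were lower. In 14 members (21.5%) the groups did not overlap and the deleted pools were lower, which held for 7.90% of all genes. These shares of all genes are the background for the counts of each role group and other list below. Without control replicate 2, 2.26% of all genes were lower at an adjusted p under 0.05. That pool was the lowest control in 61 of the 65 members, so leaving it out was bound to lower most of their log2 fold changes. The counts by role without it are therefore no support for a difference. Leaving out control replicate 1 or 3 left 1 member passing by limma, and leaving out any deleted pool left 0. The counts over members past the filter describe those genes and leave out 9 dim members, and no member passed the filter with a group mean below it. With no filter, 68 of the 74 had values below 0 and the median was -0.53.

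**Figure D1:**
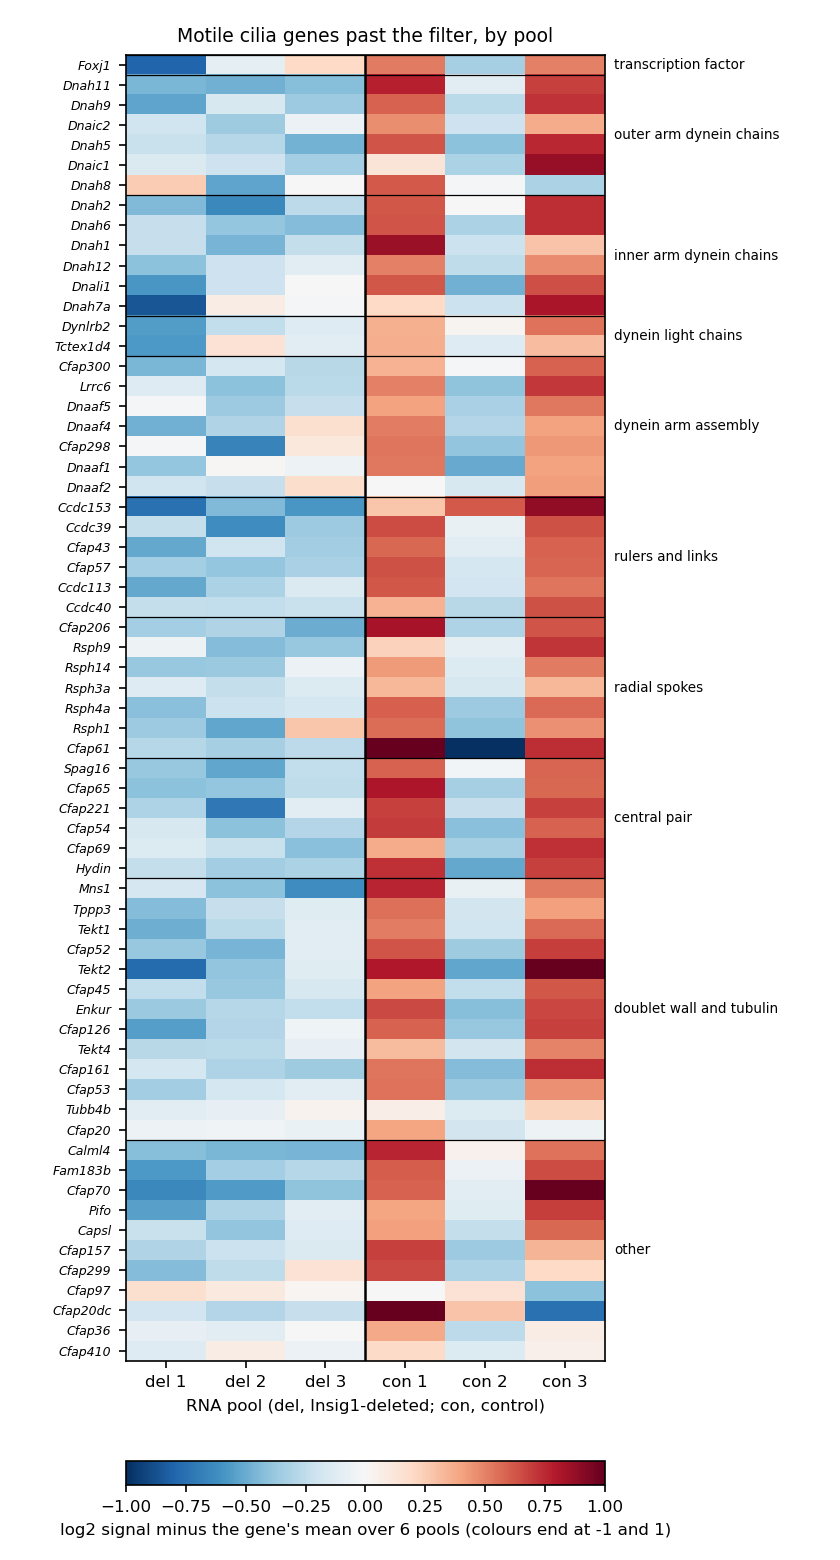
Log2 signal of the 65 motile cilia genes past the filter, each minus its mean over the 6 pools, with genes in rows grouped by role and pools in columns. Most genes are below their mean in the 3 deleted pools and in control replicate 2, and above it in control replicates 1 and 3.

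Foxj1, the forkhead transcription factor that switches on the motile cilia programme, had signals of 3278, 5304 and 6523 in deleted pools, against 8128, 4518 and 8029 in control pools. The groups overlapped, because control replicate 2 lay below 2 of the deleted pools. Its log2 fold change was -0.46 ± 0.29 (SE, adjusted p = 0.56), so a difference was not shown for the regulator itself. The value was -0.18 without deleted replicate 1 and -0.74 without control replicate 2 (adjusted p of 0.89 and 0.16). Its profile over the 6 arrays correlated at 0.829 with the mean of the members.

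Outer arm dynein chains set the beat frequency, and 6 of their 7 genes passed the filter. All 6 had values below 0 (median -0.56), 0 passed at an adjusted p under 0.05 by limma, and 3 were lower at an unadjusted p under 0.05. Dnah11, a heavy chain, had 1123, 1104 and 1150 in deleted pools, against 2650, 1436 and 2479 in control pools. The groups did not overlap, with control replicate 2 closest to the deleted pools (log2 -0.91 ± 0.23, SE, adjusted p = 0.17). The signals of Dnah9, another heavy chain, were 1870, 2415 and 2095 in deleted pools and 4067, 2239 and 4450 in control pools, so they overlapped (log2 -0.70, adjusted p = 0.31). The intermediate chain gene Dnaic2 showed 3412, 3064 and 3761 in deleted pools and 5408, 3394 and 5067 in controls (log2 -0.41, adjusted p = 0.41). In each of these 3 genes control replicates 1 and 3 stood above all deleted pools. Dnah5 stood at log2 -0.65, Dnaic1 at -0.46 and Dnah8, a heavy chain best known from sperm, at -0.18. Leaving out control replicate 2 let 4 of the 6 pass.

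Inner arm dynein chains shape the bend of the beat. All 6 of their genes passed the filter with values below 0 (median -0.58), 0 passed at an adjusted p under 0.05 by limma and 4 were lower at an unadjusted p under 0.05. Dnah2 had signals of 1537, 1341 and 1742 in deleted pools, against 3211, 2090 and 3487 in control pools. Every deleted pool was lower (53.5% of control, log2 -0.90 ± 0.21, SE, adjusted p = 0.13). Dnah6 overlapped, with 4658, 4169 and 4031 in deleted pools and 8414, 4380 and 9098 in control pools (log2 -0.70). Dnah1 stood at -0.62, Dnah7a and Dnali1, the light intermediate chain, both at -0.53, and Dnah12 at -0.48. With control replicate 2 left out, 5 of the 6 passed.

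Among the light chain genes, Dynlrb2, which encodes a roadblock-type light chain, had 16234, 20205 and 21835 in deleted pools, against 30608, 24397 and 34848 in control pools. The groups did not overlap (65.0% of control, log2 -0.62 ± 0.16, SE, adjusted p = 0.19). Tctex1d4, of the Tctex light chain family, gave 1056, 1744 and 1454 in deleted pools and 2028, 1436 and 1948 in control pools, with overlap (log2 -0.36, adjusted p = 0.55). Neither passed, and without control replicate 2 Dynlrb2 did (log2 -0.76, adjusted p = 0.03).

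**Figure D2:**
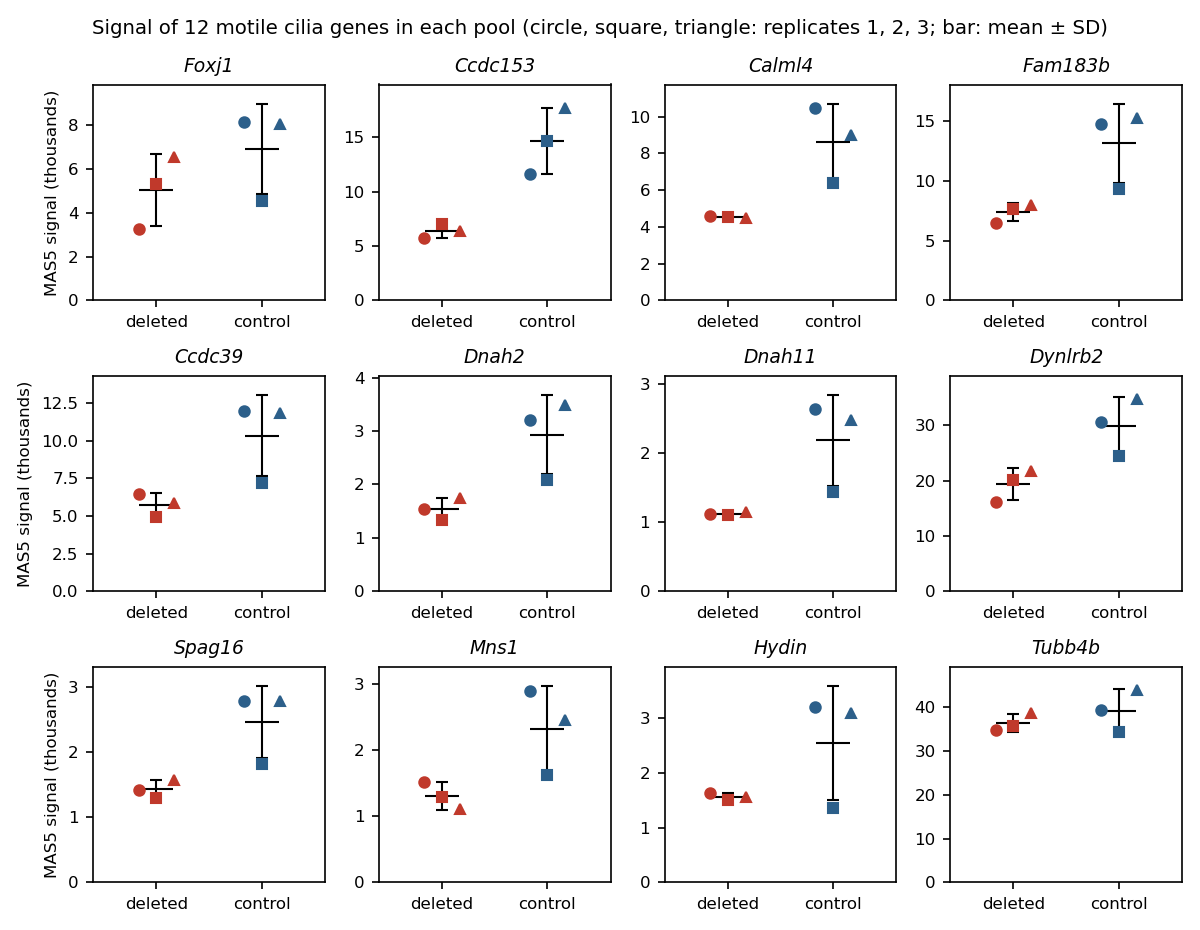
MAS5 signal on a linear axis from 0 for 12 motile cilia genes, with Insig1-deleted pools in red and control pools in blue; markers are single pools and bars the mean ± SD (n = 3 each). Control replicate 2 (square) lies nearest to the deleted pools in most panels but not for Ccdc153, where it lies between the other controls.

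Dynein arms are put together in the cytoplasm by assembly factors before they enter the cilium. Of 8 such genes 7 passed the filter, all with values below 0 (median -0.40), 0 passed at an adjusted p under 0.05 by limma and 1 was lower at an unadjusted p under 0.05. That gene was Cfap300, with 637, 772 and 719 in deleted pools and 1110, 859 and 1313 in control pools, which did not overlap (log2 -0.61 ± 0.20, SE, adjusted p = 0.30). Lrrc6 had 1432, 1177 and 1297 in deleted pools, against 2220, 1187 and 2564 in controls (log2 -0.54). Cfap298 had 3480, 2211 and 3790 in deleted pools, against 5083, 2680 and 4741 in controls (log2 -0.38). Both overlapped through control replicate 2. Dnaaf4 stood at -0.41, Dnaaf5 at -0.40, Dnaaf1 at -0.28 and Dnaaf2 at -0.17. Leaving out control replicate 2 let 2 of the 7 pass.

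The rulers and links of the axoneme held the gene that passed. Ccdc153, which encodes a coiled-coil protein counted with the nexin-dynein regulatory complex, fell to 44.0% of the control level. It had signals of 5700, 7052 and 6384 in deleted pools, against 11626, 14626 and 17724 in control pools. Every deleted pool lay far below the lowest control (log2 -1.19 ± 0.16, SE, adjusted p = 0.014), and unlike in most members control replicate 2 was not the lowest control. The call was lost without deleted replicate 1, 2 or 3 (adjusted p of 0.09, 0.063 and 0.083) and without an intensity trend (0.091), while the value stayed between -1.34 and -1.04 over the 6 fits that left out 1 pool. It is measured by 1 probe set on this array.

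Ccdc39, which with Ccdc40 forms the ruler that spaces inner arms and spokes along the doublet, had 6441, 4944 and 5884 in deleted pools and 11936, 7217 and 11828 in control pools. The groups did not overlap (log2 -0.81 ± 0.20, SE, adjusted p = 0.16), and a second, dimmer probe set gave -1.02. Ccdc40 stood at -0.47 and overlapped. The tether gene Cfap43 (-0.70) and Cfap57 (-0.70) had groups that did not overlap, and Ccdc113 (-0.64) overlapped. Of these 6 genes, 5 were lower at an unadjusted p under 0.05, and all 6 passed without control replicate 2.

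Radial spoke members past the filter overlapped between the groups in every case. Of 8 members 7 passed the filter, all 7 had values below 0 (median -0.54), 0 passed at an adjusted p under 0.05 by limma and 3 were lower at an unadjusted p under 0.05. Cfap206, which encodes a protein at the spoke base, had 2444, 2506 and 2193 in deleted pools, against 5473, 2496 and 4771 in control pools (log2 -0.76, adjusted p = 0.30). Control replicate 2 lay inside the deleted range, and the other controls lay well above it. The spoke head genes Rsph9 and Rsph1 gave log2 fold changes of -0.57 and -0.40. Rsph9 had 1838, 1411 and 1467 in deleted pools and 2236, 1789 and 3120 in controls. Rsph1 had 3570, 3194 and 5568 in deleted pools and 6741, 3467 and 6295 in controls. Rsph14 stood at -0.54, Rsph4a, another head protein gene, at -0.54, and Rsph3a at -0.34. Cfap61 had the largest standard error of the members tested, with controls of 3054, 508 and 1978, beside 976, 941 and 993 in deleted pools (log2 -0.58 ± 0.53, SE). Without control replicate 2, 4 of 8 radial spoke genes tested passed.

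Central pair genes had a median of -0.65. Of 9 members 6 passed the filter, all with values below 0, 0 passed at an adjusted p under 0.05 by limma and 3 were lower at an unadjusted p under 0.05. Spag16 had 1424, 1292 and 1565 in deleted pools, against 2787, 1817 and 2775 in controls, and the groups did not overlap (log2 -0.76 ± 0.19, SE, adjusted p = 0.17). Cfap65 gave 2191, 2231 and 2436 in deleted pools and 5105, 2314 and 4334 in controls (log2 -0.70), and Cfap54 3672, 3085 and 3355 in deleted pools and 6666, 3080 and 6182 in controls (log2 -0.58). In both, control replicate 2 had a signal like those of the deleted pools. Hydin, whose loss is known to cause hydrocephalus in mice, was drawn in the plot of signals although outside the rule for named genes, and had 1641, 1514 and 1555 in deleted pools and 3201, 1356 and 3100 in controls (log2 -0.60, adjusted p = 0.45). Its control replicate 2 was the lowest of the 6 pools. Cfap221 stood at -0.75 and Cfap69 at -0.51. Without control replicate 2, 6 of the 6 passed.

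Genes of the doublet wall and its tubulin held both low and nearly level members. Of 15 members 13 passed the filter with values below 0 (median -0.56), 0 passed at an adjusted p under 0.05 by limma and 8 were lower at an unadjusted p under 0.05. Mns1, a protein inside the doublet, had 1521, 1286 and 1112 in deleted pools, against 2895, 1626 and 2451 in controls, with no overlap (log2 -0.80 ± 0.22, SE, adjusted p = 0.20). Tppp3, a tubulin-binding protein gene, had 17418, 20016 and 21572 in deleted pools and 34454, 20732 and 31285 in controls (log2 -0.52). Tubb4b, a beta tubulin gene used by many cell types, had 34831, 35694 and 38657 in deleted pools and 39493, 34299 and 44074 in controls, with a log2 fold change of -0.10 ± 0.12 (SE, adjusted p = 0.80). Cfap20, also expressed widely, stood at -0.10, and these were the values nearest to 0 in the group. The tektins, filament proteins of the doublet, gave -0.86 (Tekt2), -0.58 (Tekt1) and -0.42 (Tekt4). Cfap52 (-0.64), Enkur (-0.60), Cfap126 (-0.59), Cfap161 (-0.56), Cfap45 (-0.52) and Cfap53 (-0.43) lay between them. With control replicate 2 left out, 10 of the 13 passed.

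The remaining members have less settled roles. Calml4, a calmodulin-like protein gene, came nearest to the threshold after Ccdc153, with 4597, 4518 and 4487 in deleted pools against 10485, 6387 and 9022 in controls. The deleted pools were tight and below every control (53.6% of control, log2 -0.90 ± 0.17, SE, adjusted p = 0.066). Fam183b had 6513, 7669 and 7986 in deleted pools, against 14787, 9352 and 15293 in controls, again with no overlap (log2 -0.80 ± 0.19, SE, adjusted p = 0.14). Cfap70 did not overlap either (log2 -1.07 ± 0.28, SE, adjusted p = 0.19). Pifo stood at -0.64, Capsl at -0.49, Cfap20dc at -0.48, Cfap157 at -0.44 and Cfap299 at -0.37. Cfap36 (-0.13), Cfap410 (-0.07) and Cfap97 (0.18), the member above 0, lay close to no change, and Cfap97 ran against the others across pools (r = -0.766 with the mean of the members). Of the 11 genes tested, 5 were lower at an unadjusted p under 0.05, and 5 passed without control replicate 2.

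**Figure D3:**
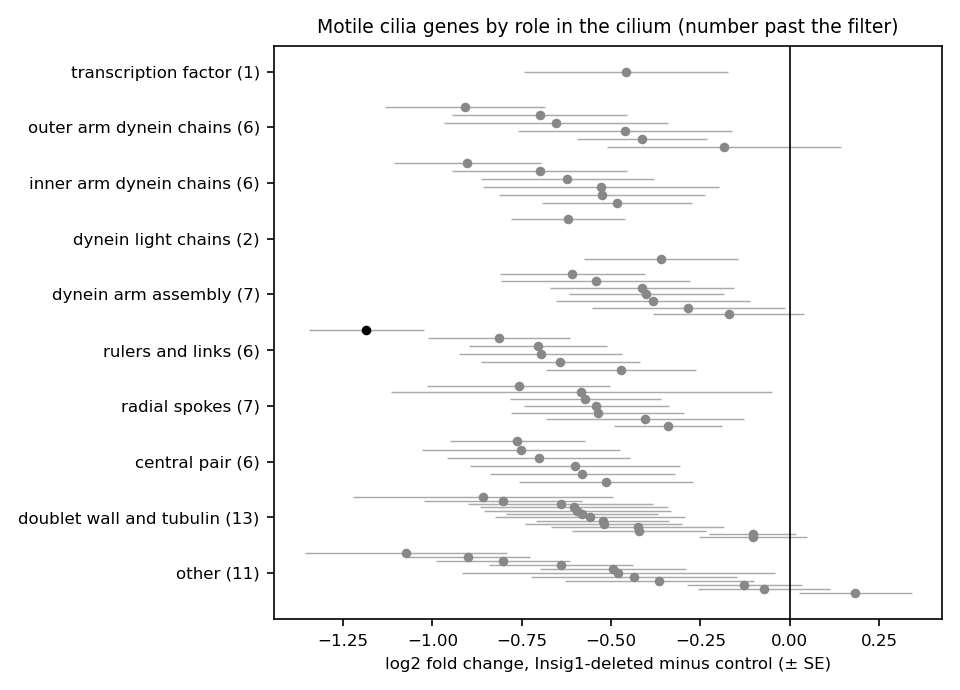
Log2 fold change (Insig1-deleted minus control) of the 65 members past the filter, with its standard error, in rows by role; the black point is Ccdc153, the gene with an adjusted p under 0.05. All but Cfap97 lie below 0, and the middle of the members lies between -0.70 and -0.42.

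The members moved together across pools, and 1 control pool went with the deleted ones. After each gene was centred on its mean over the 6 arrays, the median over the 65 members was -0.34, -0.30 and -0.14 in deleted replicates 1, 2 and 3, against 0.55, -0.23 and 0.57 in control replicates 1, 2 and 3. Control replicate 1 lay above every deleted pool in 63 members and control replicate 3 in 60, but control replicate 2 in 15. It lay inside the range of the deleted pools in 37 members and below all of them in 13. A member's correlation with the mean of the members over the 6 arrays was 0.949 at the median, and 45 members exceeded 0.9. These arrays share scaling and group, so this is a description. Ccdc153 was less typical, at 0.683.

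Which pools enter decided how many members passed. Without control replicate 2, 43 of 66 members tested (65.2%) were lower at an adjusted p under 0.05, where 2.26% of all genes were, and 0 were higher. Their log2 fold changes ran from -1.39 to -0.51, and the median over the 66 members was -0.79. Of these 43 genes 30 had been lower at an unadjusted p under 0.05 with all pools. Without control replicate 1 or 3, Ccdc153 alone passed and the medians were -0.43 and -0.39. Without deleted replicate 1, 2 or 3, 0 members passed by limma, while 17, 21 and 27 were lower at an unadjusted p under 0.05. These are 26.2%, 32.3% and 41.5% of the members, beside 4.64%, 3.44% and 4.48% of all genes in the same fits. The median was below 0 in each of the 6 fits, and at least 60 members had values below 0 in each. Control replicate 3 had the lowest array weight (0.437), followed by control replicate 2 (0.534), against 0.936 to 2.12 for the other pools. Whether the pools differ in the part of the Cre system that the control mice lacked was not tested.

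**Figure D4:**
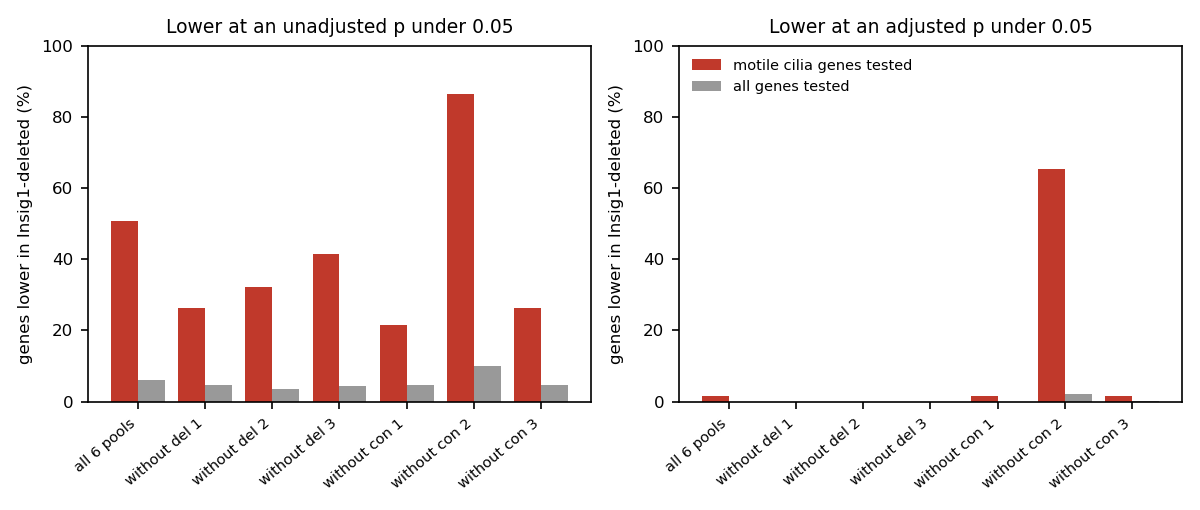
Share of genes lower in Insig1-deleted pools with all 6 pools and without each pool in turn, for the motile cilia genes tested (red) and for all genes tested (grey), at an unadjusted p (left) and an adjusted p (right) under 0.05. The red bars on the left run from 21.5% to 86.4%, and on the right the bar without control replicate 2 stands at 65.2% while the others lie at or below 1.54%.

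Other probe sets of the members that passed the filter gave the same sign, while those below it had values on both sides of 0. The 74 genes had 120 probe sets naming them alone, and 14 of the 46 that were not the brightest passed the filter, in 13 genes. All 14 had log2 fold changes below 0, from -1.02 for Ccdc39 to -0.04 for Cfap20. Of 3 probe sets that name several genes, at least 1 of them by a symbol of the rule, the set of Rsph3b and Rsph3a gave -0.51 ± 0.20 (SE), that of Dnah7c and Dnah7b, which are not among the 74 genes, -0.60 ± 0.29 and the set shared by Dnaaf2 with ribosomal protein genes -0.10 ± 0.12. None of these passed (adjusted p between 0.44 and 0.83).

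The 9 members below the filter had geometric mean signals under 271. Spag17 had 273, 115 and 169 in deleted pools and 326, 180 and 313 in controls, and Spag6 averaged 22.2 in deleted pools and 31.0 in controls; both encode central pair proteins. Tekt3 and Dnah17, both best known from sperm, averaged 155 and 128 in deleted pools and 54.6 and 76.8 in controls. Rsph6a averaged 286 in deleted pools and 223 in controls, and the group means of Cfap47, Dnaaf6, Cfap97d1 and Tekt5 ran from 30.8 to 132. With no filter, Tekt3 was higher at an unadjusted p under 0.05 (log2 1.82 ± 0.66, SE, adjusted p = 0.40), and none of the other 8 differed at that level.

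Ciliary genes outside the rule had values below 0 in most cases, with none past the threshold. A list of 70 other axoneme and ciliary motility genes, chosen with results of these data known, left 51 genes tested after members and dim or unnamed genes were set aside. Of these 49 had values below 0 with a median of -0.56, and 18 had groups that did not overlap, with deleted pools lower. By limma, 27 were lower at an unadjusted p under 0.05 and 0 passed at an adjusted p. Over all genes, 7.90% did not overlap with deleted pools lower, and 6.02% were lower at that unadjusted p. Lrrc23, a radial spoke gene, had 4160, 3998 and 4805 in deleted pools, against 7427, 5868 and 6542 in control pools (log2 -0.61 ± 0.13, SE, adjusted p = 0.11). Armc4, of the outer arm docking complex, stood at -0.78, Spef2, of the central pair, at -0.69, and Fank1 at -0.68, all with every deleted pool lower. Dynll1, a dynein light chain gene used by many cells and the brightest of the list, stood at -0.20, and Dynlrb1 (0.10) and Ttc25 (0.20) lay above 0. In this list too control replicate 2 was low, with a centred median of -0.17 against 0.52 and 0.62 in control replicates 1 and 3. Leaving out that pool gave 28 of 51 genes lower at an adjusted p under 0.05, beside 2.26% of all genes. Leaving out any other single pool gave 0 genes of the list.

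Genes that make multiciliated cells had values on both sides of 0. Of 10 tested genes 7 had values below 0 with a median of -0.19, and 0 passed at an adjusted p under 0.05 by limma. Deup1, which builds the deuterosomes that amplify centrioles, was lower at an unadjusted p (log2 -0.64 ± 0.22, SE, adjusted p = 0.31), with 881, 1024 and 894 in deleted pools against 2046, 1166 and 1274 in controls. Ccno, a cyclin family gene needed for the same step, was the opposite (log2 0.41 ± 0.18, SE, adjusted p = 0.40), higher in every deleted pool, with 2402, 2067 and 1946 in deleted pools against 1688, 1259 and 1923 in controls. Rfx3, which encodes an RFX factor, stood at -0.43, Cep41 at -0.34 and Myb, the brightest, at -0.19, with overlap in each.

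Markers of other airway cells varied in their order of pools. Of 12 tested markers of airway cells, of which Krt5 marks basal cells and the others secretory cells or airway epithelium at large, 11 had values below 0 (median -0.27), 1 passed and 2 were lower at an unadjusted p under 0.05. Sox2, the transcription factor gene of airway epithelium, passed, with 4022, 3549 and 4098 in deleted pools against 6498, 6255 and 8010 in controls (log2 -0.83 ± 0.13, SE, adjusted p = 0.03). Its call was lost without control replicate 1 or any of the deleted pools. Aldh1a1 stood at -0.45, Gabrp at -0.29 and Scgb3a2 at -0.23, and Scgb1a1, the club cell marker and the brightest of the list, at -0.11 with the highest signal on each array. The summed signal of the list ran from 405600 to 578800 in deleted pools and from 497100 to 689300 in control pools. Centred medians were -0.45, 0.02 and 0.06 in deleted pools and 0.01, -0.01 and 0.50 in controls, with the markers going different ways. Control replicate 2 was the lowest control in 6 of the 12 markers, beside 61 of the 65 members. The median log2 fold change of the list was -0.05 without deleted replicate 1 and -0.10 without control replicate 3. The basal markers Krt14 and Trp63 and the neuroendocrine marker Chga were below the filter.

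Macrophage markers moved the other way with the same groups. All but 1 of 12 tested markers had values above 0 (median 0.998), and 7 rose at an adjusted p under 0.05 by limma. Those with the smallest p were Cd68 (log2 1), Marco (2.26), Mpeg1 (1.37) and Chil3 (1.06). Lyz1, the brightest, was the marker below 0 (-0.05), with 135212, 158037 and 173503 in deleted pools and 135488, 170864 and 178659 in controls. The summed signal of the 12 was 264600 to 290900 in deleted pools and 184100 to 239600 in control pools. Lyz1 made up the largest part of this sum in every pool, so the sum says little about the markers that rose. Members summed to 208400 to 238800 in deleted pools, against 364900, 237600 and 375100 in control pools. Type II markers summed to 693300 to 820600 in deleted pools and 712800 to 837700 in controls (median log2 0.10), and type I (0.02) and endothelial markers (0.04) had medians near 0. The part of the macrophage and airway differences in the values of the members was not tested.

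**Figure D5:**
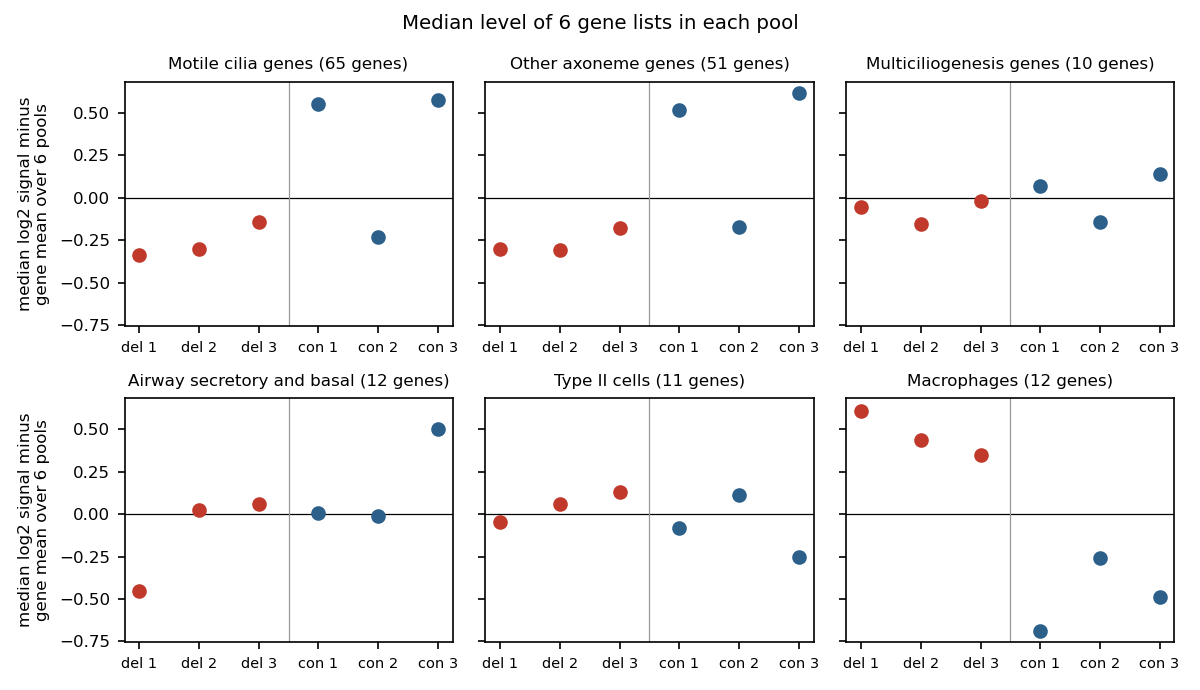
Median over the genes of a list of the log2 signal minus the gene's mean over the 6 pools, for 6 lists, with Insig1-deleted pools in red and control pools in blue. Motile cilia genes and other axoneme genes are high in control replicates 1 and 3 alone, while macrophage markers are above 0 in the 3 deleted pools and below 0 in the 3 control pools.

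Genes outside the rule whose log2 signals tracked the mean of the members most closely over the 6 arrays were Dhx16 (r = 0.998), Ttc16 (0.997), Perp (0.997), Dnajb13 (0.997), Fam216a (0.996) and Traf3ip1 (0.996). Dnajb13, known as a radial spoke protein, had 1562, 1525 and 1805 in deleted pools, against 3150, 1668 and 3257 in control pools (log2 -0.66). Traf3ip1, known from intraflagellar transport, had 3941, 4033 and 4375 in deleted pools and 7706, 3948 and 7440 in controls (log2 -0.57). Both repeated the pattern of a low control replicate 2. The likeness was ranked over 6 arrays and all other genes tested, and it is a description.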

How the data were processed

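The data were 6 arrays, 1 pool of total RNA each, biotin-labelled for Affymetrix arrays per the labels' protocols. The authors deposited linear signal intensities, 1 per probe set, made with MAS5 per the submitters' processing notes, with no version given. Each array had been scaled to a trimmed mean of 1500, as the values show. MAS5 treats arrays singly and gives dim probe sets noisy ratios. Of 45101 probe sets, 34945 named 1 gene in the platform annotation. The log2 scale is not that of the deposited values: here signals under 1 were set to 1, log2 was taken, and probe sets with a mean below the 40th percentile (log2 8.08, signal 271) were left out, which kept 12952 genes by their brightest probe set.

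Groups of 3 pools were taken from sample titles and compared across all 12952 genes by linear models in limma 3.58.1 (R 4.3.3), moderated with eBayes and a trend on intensity. Tests were two-sided, p-values were adjusted by Benjamini-Hochberg over all these genes, and the threshold was 0.05. Fold changes are deleted minus control with moderated standard errors. P-values weigh the difference between the groups against the spread between pools, moderated over all genes, and the number of arrays limits the precision. An exact permutation test of 3 pools against 3 cannot go below p = 0.1 and was not used. The fit's estimates of planted changes were checked on simulated data in which genes varied independently. That does not test calls on genes that vary together. The members and lists were chosen with earlier results of these data known. Signals of every pool are given for Foxj1, for members past the threshold, and in each role group for the 2 smallest p and the brightest member. Of the axoneme, multiciliogenesis, airway and macrophage lists, up to 4 genes with the smallest p and the brightest were named. Values of single genes of the type II, type I and endothelial lists were not given. Dynlrb1, Ttc25, Hydin, Cfap61 and the dim genes were singled out after their values were seen. Alternatives were other normalizations, a pseudocount of 16, no trend, array weights, other filters, a block for the replicate number, leaving out pools singly and means over probe sets. Figures used matplotlib 3.10.9.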

Additional observations from a re-analysis of the deposited data

How the results depend on the processing

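Over the 15 alternatives the median log2 fold change of the motile cilia genes ran from -0.79 to -0.39, beside -0.54 in the main fit. The ends came from leaving out control replicate 2 and control replicate 3. The number lower at an adjusted p was 0 without a trend on intensity, 10 under array weights and 4 under the replicate block, and leaving out 1 pool gave 0 to 43. At an unadjusted p it was 50 with array weights and 14 to 57 leaving out 1 pool; with no filter 1 dim member, Tekt3, was higher. All genes past the threshold numbered 29 with no trend, 259 with array weights, 132 with the replicate block and 15 to 477 leaving out 1 pool. Same-numbered pools correlated weakly (r between 0.04 and 0.15). Deleted replicates 1 and 3 matched the control of their own number best, and deleted replicate 2 did not. These values do not settle whether the replicate numbers pair the pools. With a shift to a common median, 63 of 65 members had values below 0. Leaving out 1 pool was also tried for the other lists after seeing the data. It gave 0 to 28 other axoneme genes lower at an adjusted p and 14 to 39 at an unadjusted p, and 0 to 1 and 1 to 3 airway secretory and basal markers. None of the 24 members chosen by the rule for named genes changed sign in any of the 15 alternatives. This covers those 24 members alone, and not the other genes shown with their signals. The cause of the changes between fits was not tested. Saturation and detection calls were not used here.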
